A study of Mus musculus with 65 samples.

Results

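Polg was cut in mouse liver with 3 guide RNAs (Polg-sg1, Polg-sg2 and Polg-sg3), and the sequence left at each cut site was read by amplicon sequencing of genomic DNA. The 6 libraries described here were taken by their labels out of 65 in the series: for each of the 3 sites, 1 library of DNA after injection of that guide (labelled KO) and 1 after injection of the empty vector (EV). All were labelled as hepatocytes from the liver of Rosa-LSL-Cas9-EGFP mice, whose Rosa locus carries a Cas9 and EGFP cassette behind a stop that Cre removes, and all were sampled 2 weeks after an adeno-associated virus (AAV) was injected behind the eye. In the EV group the virus carried an sgRNA cassette with no guide. The labels do not give the source of Cre, the promoter of the guides, the age or sex of the mice, or whether libraries share an animal, so the guides may or may not have been given together. The libraries of the closely named gene Polg2 are not among the 6.

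Polg encodes the catalytic subunit of DNA polymerase gamma, the enzyme that copies and proofreads mitochondrial DNA. It is a nuclear gene, on chromosome 7 from 79446231 to 79467911 in GRCm38.p6, the mouse assembly also called mm10. Cas9 makes a double-strand break a few bases from its recognition motif, and the cell closes the break mostly by end joining. Blunt or filled-in ends give short insertions and deletions. Ends trimmed back to a short repeat on either side of the break are joined at that repeat and give deletions with microhomology. A guide tends to leave a recurrent set of such products, set in part by the bases around its cut.

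Each read of a library reports how far the amplicon template matched up to the cut from the left, how far it matched from the right, and the net length gained or lost. Reads with a net gain or loss are called indel reads. An allele is one combination of the 2 template edges, net length and microhomology length. The letters of the reads, guides and amplicons were not used here, so the cuts are placed by their position on the amplicon template and not in an exon or intron. The cut lay at template position 202 for Polg-sg1, 211 for Polg-sg2 and 167 for Polg-sg3. Left and right follow the template, and since the strand of each guide is not given, the left of one site cannot be set against the left of another.

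The 6 libraries held between 12621 and 17691 reads, 89239 of the 828461 in the series. Each guide and arm is 1 library, so no spread between animals could be measured. Brackets hold 95% intervals, exact (Clopper-Pearson) where the value is a share and by Newcombe's method where it is a difference. PCR copies of 1 molecule cannot be recognised without molecular identifiers, so these intervals cover counting error only. A test on reads compares libraries, not conditions. The assay holds no expression values, so the labelled cell type could not be checked, and fewer edited cells cannot be told apart from fewer edited gene copies per cell.

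All 3 guides left indels in a large share of reads where the empty vector left almost none. At the Polg-sg1 site 12371 of 14643 reads carried an indel in the KO library, 84.5% (83.9 to 85.1), against 17 of 15061 in EV, 0.113% (0.0658 to 0.181). At Polg-sg2 the counts were 5464 of 12621, 43.3% (42.4 to 44.2), against 5 of 13336, 0.0375% (0.0122 to 0.0875). At Polg-sg3 they were 14733 of 15887, 92.7% (92.3 to 93.1), against 14 of 17691, 0.0791% (0.0433 to 0.133). The KO minus EV difference was 84.4 points (83.8 to 84.95), 43.3 points (42.4 to 44.1) and 92.7 points (92.2 to 93.1) in the same order. Each passed Fisher's exact test (two-sided, Benjamini-Hochberg over the 21 sites of the series), as did 100% of those 21 sites, so passing does not set the Polg sites apart.

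Reads of the KO libraries were 1 base shorter than those of EV on each side of the cut. Unedited reads at Polg-sg1 most often had 156 bases before the cut and 175 after it in KO, against 157 and 176 in EV. The other sites gave 165 and 167 against 166 and 168, and 121 and 216 against 122 and 217. The part of this difference in the indel shares was not tested. The KO shares were alike on both sequencer tiles, at 84.7% and 84.3% for Polg-sg1, 42.8% and 43.8% for Polg-sg2, and 92.9% and 92.5% for Polg-sg3.

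Few of the EV indel reads were unlike the products of the guides. In EV, 35 of the 36 indel reads had an allele that also occurred in the KO library of the same site. The KO libraries held 182, 176 and 130 alleles, so short indels at the cut could match whatever their origin, which was not tested. The 1 bp insertion at the cut accounted for 10 of 17 EV indel reads at Polg-sg1, 4 of 5 at Polg-sg2 and 9 of 14 at Polg-sg3. At Polg-sg3 another 4 EV reads carried the 2 bp deletion with microhomology that ranked second in KO. The single EV read with an allele not seen in KO was an insertion of 136 bp at Polg-sg1.

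The gap in total indel share between the weakest and the strongest guide lay almost wholly in 1 bp products. Polg-sg2 lay 41.2 points below Polg-sg1 (40.1 to 42.2) and 49.4 points below Polg-sg3 (48.5 to 50.4) in indel share; these differences are given without a test, because the guides were known as weak and strong before. Indels of 1 bp, gained or lost, made up 25.4% of Polg-sg2 reads (24.6 to 26.1), 50.7% of Polg-sg1 reads and 75.8% of Polg-sg3 reads (75.1 to 76.4). Indels of 2 bp or more made up 17.9% of Polg-sg2 reads (17.3 to 18.6), 33.8% of Polg-sg1 reads (33.0 to 34.5) and 16.98% of Polg-sg3 reads (16.4 to 17.6). On these longer products Polg-sg2 was 0.954 points above Polg-sg3 (0.0683 to 1.84), and Polg-sg1 was 15.8 points above Polg-sg2 (14.8 to 16.9). Counted by longer products alone, the order of the guides therefore changed, with Polg-sg1 highest and the other sites close together in their total. Single classes of longer products still differed between these 2 sites, in opposite directions. Deletions of 2 bp held 3.38% of Polg-sg2 reads and 8.69% of Polg-sg3 reads, and insertions of 2 to 4 bp held 4.44% and 1.08%.

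**Figure D1:**
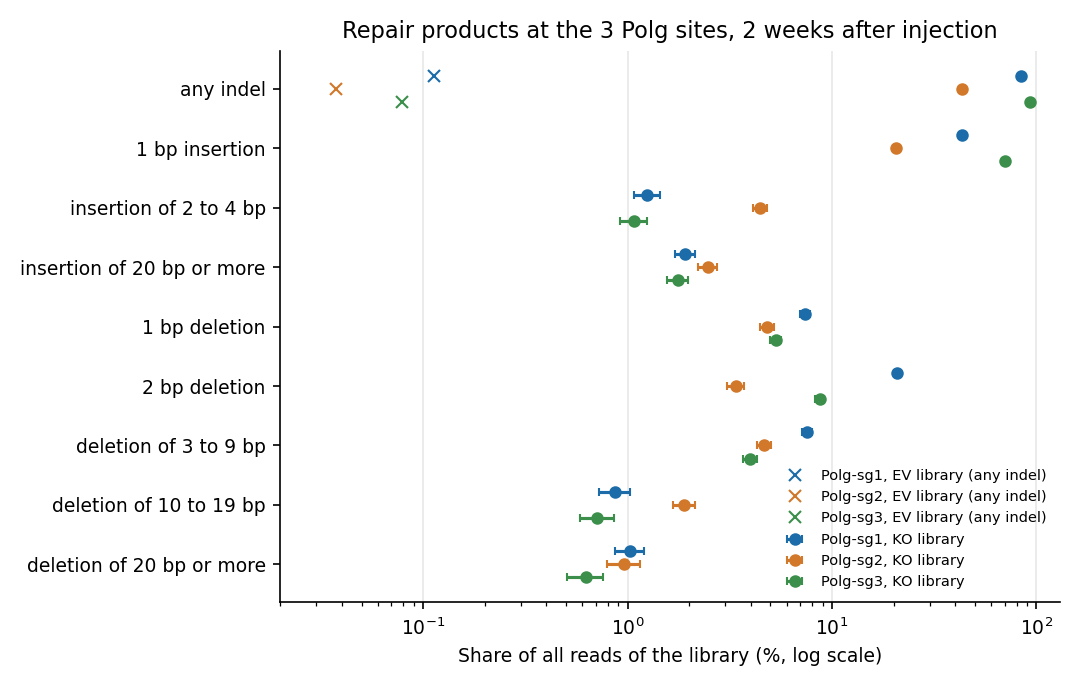
Share of all reads (%, log axis) taken by each class of repair product in the KO libraries of Polg-sg1, Polg-sg2 and Polg-sg3 (points, with exact 95% intervals), and by any indel in the EV libraries (crosses). Polg-sg2 has the lowest share for any indel and for 1 bp insertions but the highest for insertions of 2 to 4 bp, at 4.44% against 1.25% and 1.08%.

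A 1 bp insertion at the cut was the most frequent allele of every guide. This product is commonly seen where Cas9 leaves a 1-base overhang that is filled in. The clean allele, with no template base lost, held 6303 reads at Polg-sg1, 43.04% of all reads (42.2 to 43.9). It held 2562 reads at Polg-sg2, 20.3% (19.6 to 21.01), and 11037 reads at Polg-sg3, 69.5% (68.7 to 70.2). In the matching EV libraries it held 10, 4 and 9 reads.

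In the share of 1 bp insertions among indel reads the weak guide was close to Polg-sg1 and far from Polg-sg3. All 1 bp insertions together made up 51.3% of indel reads at Polg-sg1 (50.4 to 52.1), 47.5% at Polg-sg2 (46.1 to 48.8) and 76.0% at Polg-sg3 (75.3 to 76.7). Polg-sg1 exceeded Polg-sg2 by 3.79 points (2.20 to 5.38), with an adjusted p = 3.85e-06 by Fisher's exact test (two-sided; 80 tests, which are 5 measures in each of 16 pairs of sites of 1 target). Polg-sg3 exceeded Polg-sg1 by 24.7 points (23.6 to 25.8) and Polg-sg2 by 28.5 points (27.01 to 29.99), both past the threshold of 0.05. All 16 pairs of the series, 100%, passed on this measure. With each distinct allele counted once, in place of reads, none of the 15 differences between Polg guides in the 5 measures passed (Fisher's exact test, lowest adjusted p = 0.409). Such a count gives a rare allele the weight of the leading one, so it does not measure how often a product occurs.

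Short insertions of 2 to 4 bp were the products in which Polg-sg2 stood highest. They made up 560 of its 5464 indel reads, 10.2% (9.46 to 11.1), against 183 of 12371 at Polg-sg1, 1.48% (1.27 to 1.71), and 171 of 14733 at Polg-sg3, 1.16% (0.994 to 1.35). Of the 560 reads, 559 had lost no template base. Even as a share of all reads the weak guide was above the strong ones, at 4.44% against 1.25% and 1.08%. The differences were 3.19 points from Polg-sg1 (2.79 to 3.60) and 3.36 points from Polg-sg3 (2.97 to 3.76), while Polg-sg1 and Polg-sg3 differed by 0.173 points (-0.0672 to 0.417). These classes were formed after the lengths had been seen and are described without a test.

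The clean 2 bp insertion was the second most frequent allele of Polg-sg2, with 448 reads or 3.55% of the library (3.23 to 3.89), and was not seen in its EV library. The same product ranked eighth at Polg-sg1, with 149 reads or 1.02% (0.861 to 1.19), and sixth at Polg-sg3, with 133 reads or 0.837% (0.701 to 0.991). The clean 3 bp insertion, which keeps the reading frame, held 75 reads at Polg-sg2, 0.594% (0.468 to 0.744). Insertions of 3 bp of any kind numbered 21 at Polg-sg1 and 22 at Polg-sg3.

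Long insertions, of 20 bp or more, were present at all 3 sites. They numbered 280 reads at Polg-sg1, 1.91% of reads (1.70 to 2.15), 311 at Polg-sg2, 2.46% (2.20 to 2.75), and 280 at Polg-sg3, 1.76% (1.56 to 1.98). Polg-sg2 exceeded Polg-sg1 by 0.552 points (0.204 to 0.906) and Polg-sg3 by 0.702 points (0.366 to 1.05), and in the EV libraries 1 read held such an insertion. Relative to indel reads they were 5.69% at Polg-sg2 (5.09 to 6.34), against 2.26% at Polg-sg1 and 1.90% at Polg-sg3. Their lengths had a median of 46, 43 and 47 bp at Polg-sg1, Polg-sg2 and Polg-sg3, and their lower and upper quartiles were 36 and 50, 32.5 and 51, and 44 and 51 bp.

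The long insertions were spread over many alleles. The 311 reads at Polg-sg2 fell into 61 alleles, and the commonest held 23 reads. The 280 reads at Polg-sg1 fell into 39 alleles, the commonest with 20 reads, and those at Polg-sg3 into 28 alleles, the commonest with 29. Most had lost no template: 190 of 280, 230 of 311 and 261 of 280 reads. Since the letters of the insertions are not in the tables, their origin is not analysed here. Insertions of 5 to 19 bp were rare, with 53, 19 and 21 reads.

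**Figure D2:**
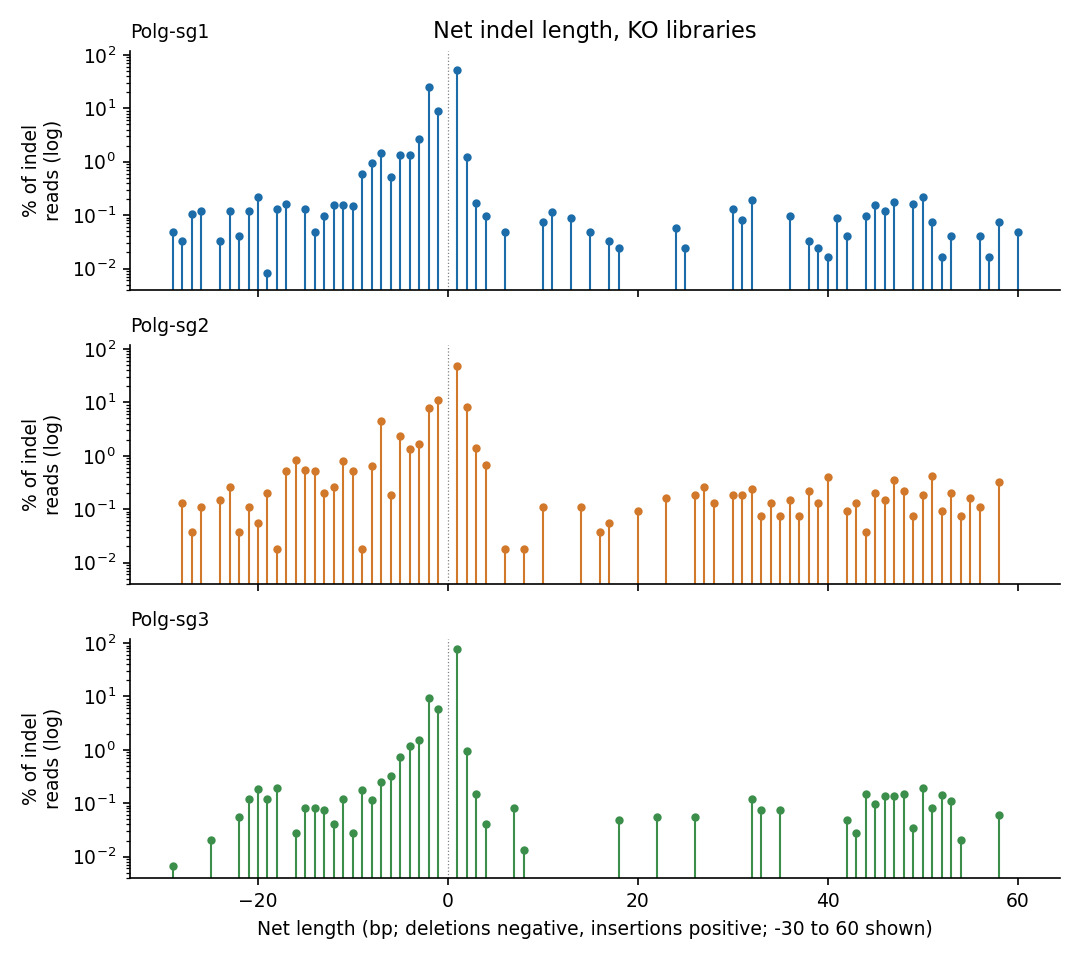
Net indel length (bp, deletions negative, insertions positive) against the share of indel reads (%, log axis) in the KO libraries of the 3 Polg sites. The 1 bp insertion is the highest point of each panel, followed by the 2 bp deletion at Polg-sg1 (24.6%) and Polg-sg3 (9.37%), and by the 1 bp deletion at Polg-sg2 (11.1%). Insertions of 5 to 19 bp are sparse, with 53, 19 and 21 reads, and those of 20 bp or more form a broad group.

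Deletions differed between the guides in share, length, side and microhomology. They made up 5513 of 12371 indel reads at Polg-sg1, 44.6% (43.7 to 45.4), 1980 of 5464 at Polg-sg2, 36.2% (34.96 to 37.5), and 3067 of 14733 at Polg-sg3, 20.8% (20.2 to 21.5). The median deletion was 2 bp at each site. The length that 90% of deletion reads did not exceed was 7 bp at Polg-sg1, 16 bp at Polg-sg2 and 6 bp at Polg-sg3. The longest deletions were 88, 91 and 87 bp. Deletions that remove a primer site would not be amplified and could not be seen.

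At Polg-sg1 the 2 bp deletion dominated. Its right-hand clean form held 2326 reads, 15.9% of the library (15.3 to 16.5), and its left-hand clean form 586 reads, 4.002% (3.69 to 4.33). The next deletions of Polg-sg1 were each of 1 bp: 346 reads with the base left of the cut missing, 309 with the base to its right missing, and 344 with 2 bases lost to the right and 1 unmatched base in the junction. A clean 3 bp deletion to the right held 201 reads, 1.37% (1.19 to 1.57).

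At Polg-sg2 no deletion stood out in this way. Its most frequent were the clean 2 bp deletion to the right, with 255 reads or 2.02% (1.78 to 2.28), the 1 bp deletion with 2 bases lost and 1 unmatched base, with 246 reads or 1.95%, and the 1 bp deletion to the left, with 222 reads or 1.76%. A 7 bp deletion with 4 bp of microhomology followed, with 183 reads or 1.45% (1.25 to 1.67). A clean 2 bp deletion to the left held 168 reads, a 1 bp deletion to the right 89 and a clean 5 bp deletion to the left 82.

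At Polg-sg3 the leading deletion was a 2 bp loss with 2 bp of microhomology, with 1366 reads or 8.60% of the library (8.17 to 9.04), and 4 reads in EV. Neither template side was recorded as shortened in it, which means that the 2 bases before the cut equal the 2 bases after it. The 1 bp deletion to the right followed with 414 reads, 2.61% (2.36 to 2.87). The other named deletions of this site each had 1 unmatched base and lost template to the right only.

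Deletions of 2 bp or more made up 35.8% of indel reads at Polg-sg1 (34.96 to 36.7), 25.1% at Polg-sg2 (24.0 to 26.3) and 15.1% at Polg-sg3 (14.5 to 15.7). Polg-sg1 exceeded Polg-sg2 by 10.7 points (9.24 to 12.1), and Polg-sg2 exceeded Polg-sg3 by 10.03 points (8.75 to 11.3). By Fisher's exact test the adjusted p was 1.35e-45 and 5.06e-58, and all 16 pairs of the series, 100%, passed. The gap between Polg-sg2 and Polg-sg3 turned to -12.9 points once the leading allele of each library, the clean 1 bp insertion, was left out of the indel reads. That step changes the base of the share and not the deletion counts, so it says nothing about the full difference. For 1 bp deletions the shares of indel reads were 8.76% at Polg-sg1 (8.27 to 9.27), 11.1% at Polg-sg2 (10.3 to 11.97) and 5.72% at Polg-sg3 (5.35 to 6.10).

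Polg-sg2 exceeded Polg-sg1 in this 1 bp share by 2.35 points (1.39 to 3.33) and Polg-sg3 by 5.39 points (4.50 to 6.33), and Polg-sg1 exceeded Polg-sg3 by 3.05 points (2.43 to 3.67). The adjusted p of these 3 differences by Fisher's exact test was 1.49e-06, 1.79e-36 and 4.72e-22. Of the 16 pairs of the series 93.8% passed. Without that 1 bp insertion both differences from Polg-sg3 turned, to -4.92 points for Polg-sg1 and to -1.86 points for Polg-sg2, the latter not past the threshold (adjusted p = 0.0826, Fisher's exact test). This step keeps the deletion counts but removes 74.9% of the indel reads of Polg-sg3, against 50.9% at Polg-sg1 and 46.9% at Polg-sg2. It changes the base of the share and says nothing about the full difference.

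Longer deletions were relatively frequent at the weak guide. Deletions of 10 to 19 bp held 239 reads at Polg-sg2, 1.89% of all reads (1.66 to 2.15), against 127 at Polg-sg1, 0.867% (0.724 to 1.03), and 113 at Polg-sg3, 0.711% (0.587 to 0.855). Those of 20 bp or more held 121 reads, 0.959% (0.796 to 1.14), against 150 reads, 1.02% (0.868 to 1.20), and 99 reads, 0.623% (0.507 to 0.758). Deletions of exactly 7 bp held 1.94% of Polg-sg2 reads (1.71 to 2.20), 1.24% of Polg-sg1 reads (1.06 to 1.43) and 0.227% of Polg-sg3 reads (0.159 to 0.314). As a share of all reads the weak guide was highest in the first and the last of these classes.

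Microhomology marked Polg-sg3 and Polg-sg2 in different ways. Among deletions of 2 bp or more, 204 of 4429 reads at Polg-sg1 had at least 2 bp of microhomology, 4.61% (4.01 to 5.27). The count was 348 of 1373 at Polg-sg2, 25.3% (23.1 to 27.7), and 1434 of 2225 at Polg-sg3, 64.4% (62.4 to 66.4). Polg-sg2 exceeded Polg-sg1 by 20.7 points (18.4 to 23.2) and lay 39.1 points below Polg-sg3 (36.0 to 42.1). By Fisher's exact test the adjusted p was 6.43e-97 and 2.64e-118. Of the 16 pairs of the series 87.5% passed. At Polg-sg3, 1366 of the 1434 reads are the 2 bp deletion whose repeat lies at the cut itself. A loss of the 2 bases on either side of that cut is recorded as microhomology however it arose. The comparison with Polg-sg3 therefore cannot tell the sequence of the site from the way the break was joined.

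The lead of Polg-sg3 was 1 allele, the 2 bp deletion described above. Without the most frequent deletion of 2 bp or more of each library, which is that microhomology allele at Polg-sg3 but the clean 255-read deletion at Polg-sg2, the order turned, with Polg-sg2 higher by 23.2 points (19.9 to 26.4), and the adjusted p by Fisher's exact test was 1.14e-38. With a minimum of 3 bp it was likewise higher, by 20.2 points (17.9 to 22.5), and the adjusted p by the same exact test was 2.01e-84. In both steps the leading allele of Polg-sg3 no longer counted as microhomology, so neither says anything about the full difference. At Polg-sg2 repeats of 4 bp held 199 of the 1373 reads, 14.5% (12.7 to 16.5), in 4 alleles, and repeats of 3 bp held 108 reads in 4 alleles. At Polg-sg3 repeats of 3 bp or more held 55 reads and at Polg-sg1 144 reads.

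The named microhomology deletion of Polg-sg2 lost 7 bp and was recorded with its left edge 3 bp from the cut and the right side whole. Its repeat of 4 bp could have been lost from either side, so the side of the loss is not certain. The largest microhomology allele of Polg-sg1 also lost 7 bp, at 97 reads or 0.662% (0.538 to 0.808), with edges 1 bp to the left and 3 bp to the right and a repeat of 3 bp. A 4 bp deletion with a repeat of 1 bp held another 87 reads there.

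Each site had its own balance of sides. At Polg-sg1, 3627 of 5513 deletion reads lost template on the right only, 65.8% (64.5 to 67.0), and 1398 on the left only, 25.4% (24.2 to 26.5). At Polg-sg2 left-only losses were recorded more often, with 987 of 1980 reads, 49.8% (47.6 to 52.1), against 786 on the right only, 39.7% (37.5 to 41.9). A deletion with microhomology can be placed on either side of its repeat, so its recorded side is not certain. Clean junctions of Polg-sg2 were left-only in 612 reads and right-only in 489. Those with 1 unmatched base were left-only in 76 and right-only in 265. At Polg-sg3 the right side took 1400 of 3067 reads, 45.6% (43.9 to 47.4), the left side 119, 3.88% (3.22 to 4.63), and 1366 reads, the 2 bp microhomology allele, lost on neither side.

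The recorded balance changed with deletion length at Polg-sg2. Its 1 bp deletions were right-only in 336 of 607 reads, 55.4% (51.3 to 59.4), and its 2 bp deletions in 255 of 427, 59.7% (54.9 to 64.4). Its deletions of 3 bp or more were left-only in 550 of 946 reads, 58.1% (54.9 to 61.3), and right-only in 195, 20.6% (18.1 to 23.3). These include deletions with microhomology, such as the 183 reads of the named 7 bp deletion, whose side is not certain. At Polg-sg3 the right side led in both classes, with 92.9% of 1 bp deletions (90.9 to 94.5) and 71.6% of those of 3 bp or more (68.4 to 74.6). Polg-sg1 had 79.0% right-only reads among 2 bp deletions and 39.8% among those of 3 bp or more (37.2 to 42.4).

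**Figure D3:**
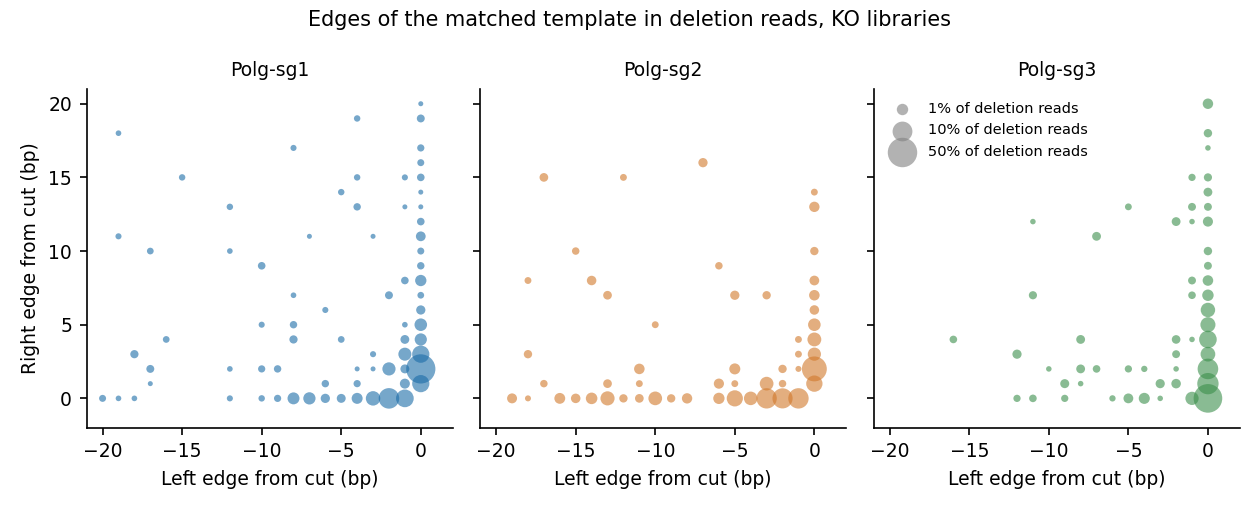
Left and right edge of the matched template, in bp from the cut, for deletion reads of the 3 KO libraries (edges within 20 bp; point area grows with the square root of the share of deletion reads, as in the key). Points of Polg-sg3 line up where the left side is whole, with 1400 reads that lost template on the right only against 119 on the left only. At Polg-sg2 the 987 left-only and 786 right-only reads spread along both axes.

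Deletions to the right of the Polg-sg3 cut mostly had 1 unmatched base in the junction. This was so for 772 of the 1400 right-only reads, against 467 with a clean junction. Losses of 2 bp to the right were recorded with 1 unmatched base in 359 reads and clean in 0, those of 4 bp in 175 and 0, those of 5 bp in 82 and 0, those of 6 bp in 60 and 0, those of 7 bp in 31 and 0, and those of 8 bp in 19 and 0. Of the 467 clean reads 414 had lost 1 bp and 28 had lost 3 bp. Reads with microhomology made up 54 of the 90 with a 3 bp loss, 12 of the 99 with a 5 bp loss and 7 of the 83 with a 6 bp loss.

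A clean 2 bp loss to the right could not be recorded at this site, because the repeat at the cut turns it into the microhomology allele. The tables match the left part no further than the cut, so a template base kept just right of the cut and a base inserted there are recorded alike and cannot be told apart. On the left of Polg-sg3 only 3 reads had 1 unmatched base, against 101 with a clean junction.

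At the other sites clean junctions outnumbered those with 1 unmatched base on either side of the cut. At Polg-sg1, 479 right-only reads had 1 unmatched base against 3021 with a clean junction, and 110 left-only reads against 1145. At Polg-sg2 the counts were 265 against 489 on the right and 76 against 612 on the left. Of the reads with an unmatched base on the right, losses of 2 bp made up 344 of the 479 and 246 of the 265.

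**Figure D4:**
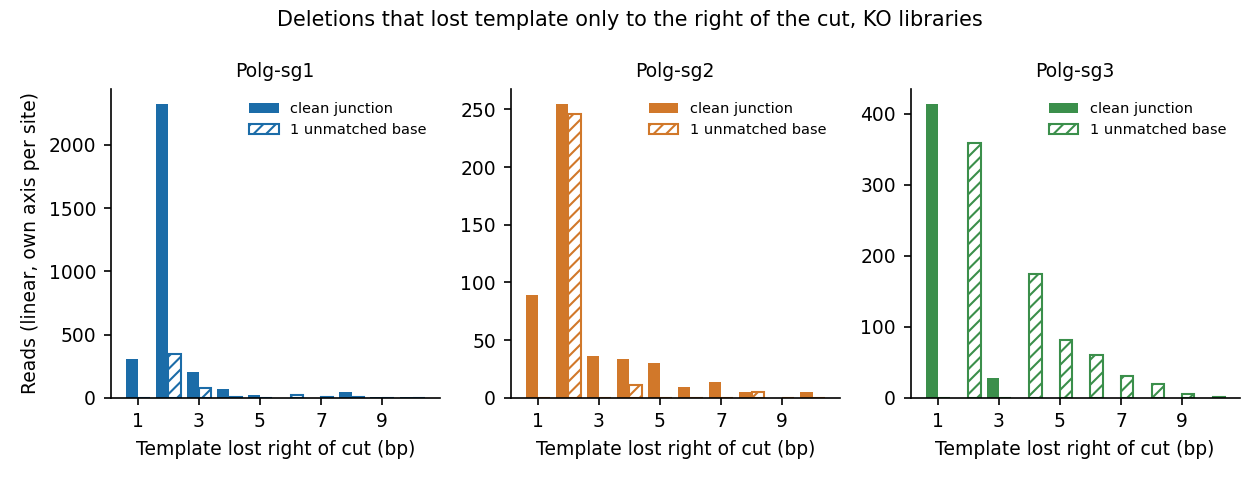
Number of reads (linear axis, scaled per site) of deletions that lost 1 to 10 bp of template on the right of the cut only, with a clean junction (filled bars) or with 1 unmatched base (hatched bars), in the KO libraries. At Polg-sg3 losses of 2 bp and of 4 to 8 bp have an unmatched base in 359, 175, 82, 60, 31 and 19 reads against 0 clean (reads with microhomology are not drawn), while at Polg-sg1 the clean 2 bp loss leads with 2326 reads.

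Most indels of each guide had a length that is not a multiple of 3, which shifts the reading frame where a cut lies in coding sequence; whether these cuts do is not analysed here. Such lengths made up 94.4% of the indel reads at Polg-sg1 (94.0 to 94.8), 93.3% at Polg-sg2 (92.6 to 93.9) and 96.7% at Polg-sg3 (96.4 to 97.0). As a share of all reads it was 79.7% (79.1 to 80.4), 40.4% (39.5 to 41.2) and 89.7% (89.2 to 90.2). Polg-sg3 exceeded Polg-sg1 by 2.32 points (1.83 to 2.83) and Polg-sg2 by 3.43 points (2.73 to 4.18), and Polg-sg1 exceeded Polg-sg2 by 1.11 points (0.347 to 1.90). By Fisher's exact test the adjusted p was 1.61e-20, 1.12e-24 and 0.00484 in that order, and 75% of the 16 pairs of the series passed. These calls did not hold throughout. With alleles of at least 10 reads alone the difference of Polg-sg1 from Polg-sg2 was -0.0750 points. Without 1 bp indels the 2 differences from Polg-sg3 turned, to 3.91 points in favour of Polg-sg1 and to 1.73 points in favour of Polg-sg2. The latter was not past the threshold (-0.381 to 3.82, adjusted p = 0.118 by Fisher's exact test). Every 1 bp indel shifts the frame, so leaving them out removes most of the measured class and says nothing about the full difference.

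The frames themselves were used unequally. Lengths that shift the frame like a 1 bp insertion, such as a 2 bp deletion, made up 79.99% of indel reads at Polg-sg1 (79.3 to 80.7), 63.6% at Polg-sg2 (62.3 to 64.8) and 87.2% at Polg-sg3 (86.7 to 87.8). Lengths that shift it like a 1 bp deletion, such as a 2 bp insertion, made up 14.4% (13.8 to 15.0), 29.7% (28.5 to 31.0) and 9.47% (9.0004 to 9.95). Lengths that keep the frame made up 5.61% (5.21 to 6.03), 6.72% (6.07 to 7.41) and 3.29% (3.00 to 3.59). The weak guide thus spread its indels most evenly over the frames.

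Of the 3 guides it also had the most alleles for its number of indel reads. Polg-sg2 had 176 distinct alleles in 5464 indel reads, and at that same number of reads 156 would be drawn on average from the 12371 indel reads of Polg-sg1 and 105 from the 14733 of Polg-sg3. The full libraries of Polg-sg1 and Polg-sg3 held 182 and 130. The 3 most frequent alleles took 74.5% of indel reads at Polg-sg1, 59.8% at Polg-sg2 and 87.0% at Polg-sg3. The effective number of alleles, the inverse of the chance that 2 random indel reads share an allele, was 3.33, 4.24 and 1.75. Alleles seen once numbered 23, 41 and 22, and those of 10 or more reads covered 95.9%, 91.7% and 97.8% of indel reads.

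Among the 21 sites of the series at 2 weeks the Polg guides covered much of the range. By indel share Polg-sg3 ranked 8th, Polg-sg1 12th and Polg-sg2 18th from the top; the 18 other sites had a median of 87.2% and ran from 25.6% to 97.2%. Polg-sg2 lay between Lats1-sg2, at 44.9%, and Lats2-sg2, at 39.8%, which were measured in another arm, labelled coinjection. For insertions of 2 to 4 bp among indel reads Polg-sg2 ranked second, between Kif11-sg2 at 18.7% and Kif11-sg1 at 9.59%, with a median of 2.003% over the other sites. For microhomology among deletions Polg-sg3 ranked second, after Hnf4a-sg2 at 74.7%, and Polg-sg1 19th of 21. For the share of one-sided deletions with 1 unmatched base Polg-sg3, at 51.0%, ranked below Lats2-sg2 and Polg2-sg3, and the other sites had a median of 13.3% and ran up to 82.9% at Lats2-sg2. None of these ranks was tested.

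**Figure D5:**
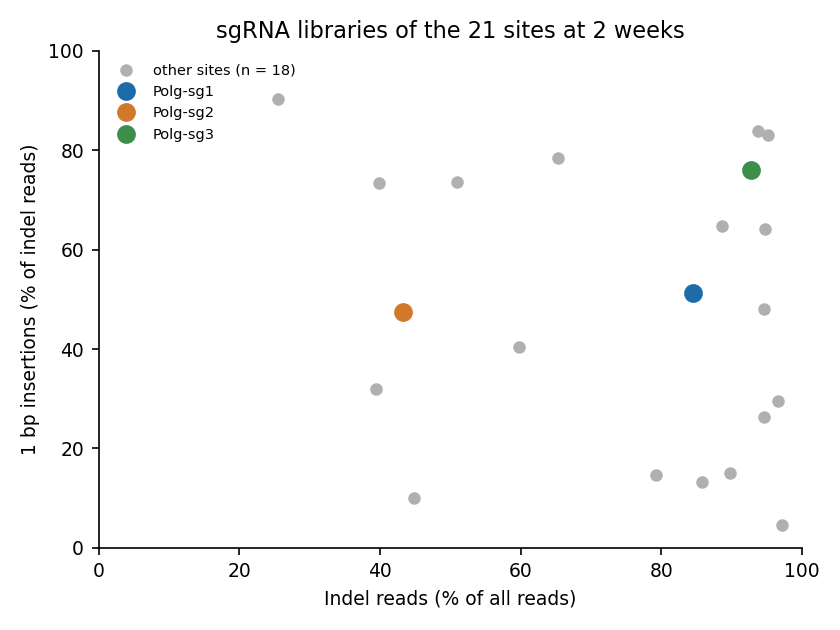
Indel reads (% of all reads) against 1 bp insertions (% of indel reads) for the sgRNA libraries of the 21 sites at 2 weeks, with the Polg sites in colour and the other 18 in grey. Polg-sg1 and Polg-sg2 sit at nearly the same height, 51.3% and 47.5%, but far apart in indel share, while Polg-sg3 lies above both at 76.0%.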

How the data were processed

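Genomic DNA was extracted with a DNeasy kit, each cut region was amplified with Phusion Flash polymerase, and pooled amplicons were turned into libraries (NEBNext Ultra II kit), as the labels' protocols state. Without giving roles, the submitters' processing notes list mm10, deepTools, Bowtie2, bcl2fastq and R 4.2.1. Which tool set the junctions is not given in the sources. The deposited tables hold 1 line per read with template and read positions and lengths in bp, per the file headers, with no normalisation by the authors.

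The template position that every junction spans was taken as the cut. Net length, loss on each side, unmatched bases and microhomology (the overlap of the matched parts in the read) were computed per read. No read was left out of the 6 libraries. A share of 0 would allow up to 3 reads of a library, between 0.0170% and 0.0238%. KO was compared with EV by Fisher's exact test (two-sided), adjusted by the Benjamini-Hochberg method across 21 sites, and 5 spectrum measures were compared between the sites of each target at 2 weeks (16 pairs, 80 tests). The tests were tried on simulated independent reads, with no PCR copies and no spread between animals, so those limits remain. Alternatives left out alleles under 2 or 10 reads or the leading allele (for microhomology, the leading deletion of 2 bp or more), counted each allele once, changed which indels count (equal-length replacements added, 1 bp indels left out, or only those with both ends within 5 bp of the cut), moved the microhomology minimum to 1 or 3 bp, or used each sequencer tile alone. Alleles are named where they are among the 10 most frequent of a KO library and hold at least 0.5% of it; other alleles are given only beside them or in counts. The members, classes and tests were chosen with earlier results of these data known. Gene positions are from RefSeq on GRCm38.p6. Scripts ran in Python 3.11.15 with scipy 1.17.1 for tests, pandas 2.3.3 and numpy 2.4.6 for tables and matplotlib 3.10.9 for plots.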

Additional observations from a re-analysis of the deposited data

Results flagged for a closer look

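Reads with no net indel but with mismatched template next to the cut, here called equal-length replacements, are outside the comparisons above and were above the level in the empty vector at each Polg site when taken as a share of reads with no indel. At Polg-sg1 they were 65 of 2272 such reads, 2.86% (2.21 to 3.63), against 49 of 15044 in EV, 0.326% (0.241 to 0.430). At Polg-sg2 they were 67 of 7157, 0.936% (0.726 to 1.19), against 77 of 13331, 0.578% (0.456 to 0.721). At Polg-sg3 they were 15 of 1154, 1.30% (0.729 to 2.13), against 30 of 17677, 0.170% (0.115 to 0.242). As a share of all reads the intervals of KO and EV overlapped at each site: 0.444% (0.343 to 0.565) against 0.325% (0.241 to 0.430), 0.531% (0.412 to 0.674) against 0.577% (0.456 to 0.721), and 0.0944% (0.0529 to 0.156) against 0.170% (0.114 to 0.242). The pool of reads with no indel was smaller in KO than in EV, and its part in the first comparison was not tested.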

How the results depend on the processing

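The KO minus EV differences kept their direction and call under all 7 alternatives at each of the 3 sites. Of 102 recomputed values 68 kept direction and, where tested, the call, and 7 kept direction but lost the call. Another 24 turned, part of them also without a call, and 3 moved. Moved values are differences in indel share between guides, which were not tested, that kept direction but left the interval of the main value. Differences are in points, and each pair is the first site minus the second. Counting each distinct allele once left 130 to 182 units per library, in place of 5464 to 14733 reads, and ended all 15 calls between guides, some with the direction turned: for 1 bp insertions -1.27 (sg1, sg2), -1.54 (sg1, sg3) and -0.271 (sg2, sg3); for 1 bp deletions 1.52, 0.110 and -1.41; for deletions of 2 bp or more 11.5, -0.220 and -11.7; for frameshifts -4.58, 0.659 and 5.24; for microhomology -5.42, -3.82 and 1.60. Leaving out the leading allele, the clean 1 bp insertion, gave -0.460 for 1 bp insertions (sg1, sg2), -3.61 (sg1, sg3) and -3.15 (sg2, sg3); this removes the measured product itself and says nothing about the full difference. It gave -4.92 (sg1, sg3) and -1.86 (sg2, sg3) for 1 bp deletions and -12.9 (sg2, sg3) for deletions of 2 bp or more. For frameshifts it gave 1.21 (sg1, sg2), 1.66 (sg1, sg3) and 0.449 (sg2, sg3). In the deletion measures this step changes only the base of the share, and in frameshifts it removes part of the measured class. For microhomology the allele left out was the most frequent deletion of 2 bp or more, which has microhomology at sg3 only, and this gave 1.78 (sg1, sg3) and 23.2 (sg2, sg3). Frameshifts were -0.0750 (sg1, sg2) with alleles of 10 or more reads, and 3.91 (sg1, sg3) and 1.73 (sg2, sg3) without 1 bp indels. All 1 bp indels shift the frame, so leaving them out says nothing about the full difference. A microhomology minimum of 3 bp gave 0.779 (sg1, sg3) and 20.2 (sg2, sg3). In indel share, 42.7 (sg1, sg2) and -51.4 (sg2, sg3) were found with alleles of 10 or more reads, and 15.8, 16.8 (sg1, sg3) and 0.954 (sg2, sg3) with 1 bp indels counted as unedited. Counting each allele once leaves fewer units and also gives a rare allele the weight of the leading one, so it does not measure how often a product occurs. Apart from these limits of the alternatives, the causes of the changes were not tested. No paired analysis was possible because each guide and arm is 1 library and the labels give no replicate numbers. The search for the place of each cut in the gene was not run, as no genome was used here.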

Other observations

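Indel-length spectra were compared by their total variation distance, which is 0 where spectra coincide and 1 where they share no length. By this measure the Polg guides were not each other's nearest neighbours among the 21 sites at 2 weeks. Polg-sg1 and Polg-sg2 were 0.246 apart, Polg-sg1 and Polg-sg3 0.261, and Polg-sg2 and Polg-sg3 0.313. Polg-sg1 lay nearest to EGFP-sg1, at 0.210. Polg-sg2 lay nearest to Kif11-sg2, at 0.213, a site that also ranked highest for insertions of 2 to 4 bp. It was almost as near to EGFP-sg1, at 0.215, where such insertions made up 1.94% of indel reads. Polg-sg3 was nearest to Lats1-sg1, at 0.0791, and to Polg2-sg1, at 0.0858. These distances weigh each read equally, so the 1 bp insertion takes a large part in them, and they are a description of 1 library per site.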
